A study of Mus musculus with 12 samples.

Results

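Transcript levels of 33 genes of mitotic spindle assembly, mitotic kinesins, cytokinesis and chromosome condensation were examined in pituitary tumors of POMC KO mice. The genes were given by symbol, and each was read from the probe set with the highest mean over the 12 arrays among those whose annotation named that gene alone, so that 33 of the 18193 genes on the array were followed and none was missing. They comprised 7 genes of spindle assembly and its kinases, 10 mitotic kinesins, 7 cytokinesis genes and 9 genes of condensin and chromosome structure.

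RNA came from spontaneous pituitary tumors of untreated mice with a homozygous knockout of Pomc (2 arrays) or a heterozygous knockout of Pomc (8 arrays), and from normal mouse pituitary (2 arrays), and was hybridized to Affymetrix mouse genome arrays. Pomc encodes the precursor of adrenocorticotropin and melanocyte-stimulating hormone, and mice that lack it develop non-secreting pituitary tumors. The knockout is germline, so the other tissues of these mice carried it too, and the heterozygous mice kept 1 Pomc allele. Strain, age and sex of the arrayed mice were not given in the sources used here, and the methods name pooled normal pituitary as the comparison without saying how many glands each normal array held.

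The tumor arrays fell into 5 consecutively numbered pairs. Within a pair, at most 4 probe sets differed by more than 2-fold, whereas 433 to 982 did so between heterozygous arrays of different pairs and 309 between the 2 normal arrays. The 2 arrays of a pair were thus replaced by their mean, which gave 1 homozygous sample, 4 heterozygous samples (named 1-2, 3-4, 5-6 and 7-8 after their arrays) and 2 normal samples. The series description counts every array as a mouse of its own, so that averaging departs from the design as deposited, and it matters most for the homozygous tumor, where 6 of the 33 genes were called after averaging and 21 with the 12 arrays taken as separate samples. The p-values below measure the spread between these samples only. The values are log2 signals from robust multichip averaging (RMA), in which 1 unit is a doubling, and a gene was called changed when its limma adjusted p was below 0.05 and its fold change exceeded 2. For the homozygous tumor, a single sample, the test assumes that it varies as the other groups do.

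The homozygous label was borne out by Pomc, whose log2 signal was 7.18 in the homozygous sample, 15.15 to 15.30 in the heterozygous samples, and 15.08 and 15.11 in normal pituitary. Heterozygous Pomc signal was not below normal (log2 difference 0.16 ± 0.09, SE; limma adjusted p = 0.332), so it does not check the heterozygous label. Summed linear signal of 8 gonadotroph and thyrotroph markers was 23746 in the homozygous sample, 2443 to 17291 in heterozygous samples and 47292 to 47962 in normal pituitary, and 3 of the 8 were lower in the homozygous tumor and 7 in heterozygous tumors. Of 6 folliculostellate and posterior lobe markers 1 was lower in the homozygous tumor and 3 in heterozygous tumors. Of 7 melanotroph and corticotroph markers 1 was lower in the homozygous tumor, and it was Pomc, the targeted gene itself. In heterozygous tumors 2 fell (Neurod1 and Crhr1, log2 differences -2.84 and -1.44) and 1 rose (Pax7, 1.48). None of these was called in the homozygous tumor (Neurod1 -0.04, Crhr1 0.80, Pax7 0.66). Of 14 macrophage markers, 2 were higher in the homozygous tumor and 9 in heterozygous tumors, with summed signal of 4018 in the homozygous sample, 5290 to 9410 in heterozygous samples and 1524 to 1828 in normal pituitary. Of 8 lymphocyte markers none was called higher in either genotype, and 1 was called lower in heterozygous tumors (Cd79b, log2 difference -1.03). Cd3g was higher in the homozygous tumor but under 2-fold (0.92, limma adjusted p = 0.0245). In heterozygous tumors 1 of 7 endothelial markers (Tek, -1.42) and 1 of 3 somatotroph and lactotroph markers (Ghrhr, -3.13) were called lower. None of either list was called in the homozygous tumor. Xist, the RNA that coats the inactive X chromosome of female cells, had a high log2 signal in the homozygous tumor (11.20) and in heterozygous samples 3-4 and 7-8 (10.93 and 11.25), and low in heterozygous samples 1-2 and 5-6 (4.58 and 5.0) and in both normal samples (5.07 and 4.57). The part of these differences in the results below was not tested, except where a value is given.

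During mitosis a bipolar spindle of microtubules captures and separates chromosomes that condensin and topoisomerase II have compacted. Kinesins are motors that use ATP to slide, cross-link or depolymerize these microtubules, and after anaphase some of them, with the microtubule bundler Prc1 and the RhoA activator Ect2, build the central spindle that places the contractile ring. Most of these genes are transcribed chiefly in G2 and mitosis, so in a tissue their RNA level depends on how many cells are dividing. In whole tissue, more dividing cells and more RNA per dividing cell cannot be told apart.

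Of the 33 genes, 6 rose in the homozygous tumor and 27 rose in heterozygous tumors against normal pituitary, and none fell in either. Among all 18193 genes, 0.956% were called higher and 1.04% lower in the homozygous tumor, and 3.83% were called higher and 3.44% lower in heterozygous tumors. The 6 genes of the homozygous tumor were among the 27 of heterozygous tumors, and 0.726% of all genes were called higher in both. The median log2 change of the 33 genes was 1.29 in the homozygous tumor and 1.71 in heterozygous tumors, against -0.04 and -0.03 for all genes. Both comparisons used the same 2 normal samples, so the 2 sets of values are not independent. In 30 of the 33 genes, the homozygous sample and all 4 heterozygous samples lay above both normal samples, an arrangement met by 16.7% of all genes (33.8% for the homozygous sample alone and 19.8% for the heterozygous samples alone). The exceptions were Kif14, Kif15 and Racgap1. Summed over the 33 genes, linear signal was 8099 in the homozygous sample, 8339 to 12300 in heterozygous samples, and 4060 and 4123 in normal pituitary. Signal in normal pituitary was under the median of all array values (5.74) for 15 of the 33 genes, and 12 genes exceeded that median in tumor arrays only.

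**Figure D1:**
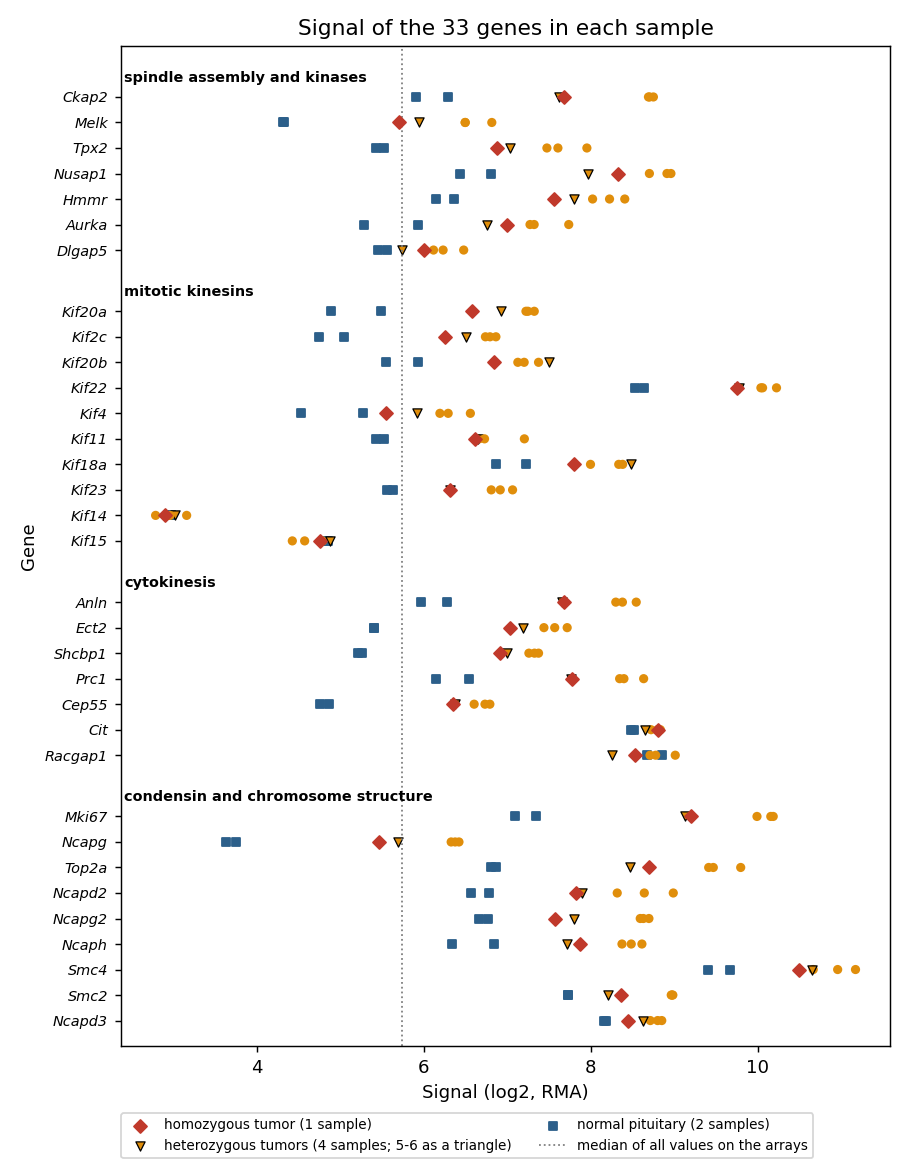
Log2 RMA signal of the 33 genes (rows, grouped by role) in the homozygous sample (diamond), the 4 heterozygous samples (circles, with sample 5-6 as a triangle) and the 2 normal samples (squares); the dotted line is the median of all values, 5.74. In 30 genes every tumor sample lies to the right of both normal samples, and levels should be compared along a row only, since probe sets differ in brightness.

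Most of the genes shared a promoter feature that their choice by symbol did not use. The cell cycle genes homology region (CHR), here the letters TTTGAA or their reverse complement TTCAAA, is known as an element of promoters active in G2 and mitosis, and it often stands near CCAAT boxes (CCAAT or ATTGG). In RefSeq sequence of build GRCm38.p6, windows from 250 bases before to 50 bases after the transcription start were found for 28 of the 33 genes, and none for Dlgap5, Kif20a, Shcbp1, Smc4 and Tpx2. CHR letters were present on either strand in 23 of these 28 genes (82.1%), against 18.5% of 17492 protein-coding genes with a window. A gene with several starts was counted when any of its windows held the letters. CHR and CCAAT letters together were present in 16 (57.1%), against 7.4%. The CHR letters also lay close to the start: they began within 50 bases of it, on either side, in 17 of the 28 (60.7%), against 4.58% of all genes, a span chosen after the positions had been seen. The windows of Cit, Kif18a, Melk, Ncaph and Nusap1 held none.

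The 100 bases that end just before the start are shown, 5′ to 3′ on the gene's strand, for all 9 genes that carry the CHR letters there (for Prc1 and Cep55, the second of their 2 starts), with CHR and CCAAT letters of either strand in capitals, to show where the letters lie in genes of different roles. All but Kif15 of these, which was read by 1 dim probe set, were called higher in heterozygous tumors.
Kif11 (chr19:37376282-37376381, + strand): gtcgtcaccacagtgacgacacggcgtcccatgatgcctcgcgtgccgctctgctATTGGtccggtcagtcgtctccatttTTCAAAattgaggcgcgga
Kif22 (chr7:127042421-127042520, - strand): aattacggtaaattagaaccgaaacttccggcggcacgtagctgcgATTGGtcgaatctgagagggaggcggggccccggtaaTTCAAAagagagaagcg
Prc1 (chr7:80294376-80294475, + strand): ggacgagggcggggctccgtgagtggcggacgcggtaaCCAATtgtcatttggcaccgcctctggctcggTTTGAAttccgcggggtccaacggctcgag
Top2a (chr11:99024190-99024289, - strand): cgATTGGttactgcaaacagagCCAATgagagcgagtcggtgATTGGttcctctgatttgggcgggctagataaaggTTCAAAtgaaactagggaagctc
Ncapg (chr5:45669825-45669924, + strand): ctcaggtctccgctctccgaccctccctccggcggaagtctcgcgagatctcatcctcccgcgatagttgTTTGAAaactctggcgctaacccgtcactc
Ncapg2 (chr12:116405336-116405435, + strand): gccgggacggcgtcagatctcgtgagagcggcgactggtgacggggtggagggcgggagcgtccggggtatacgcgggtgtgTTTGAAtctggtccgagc
Mki67 (chr7:135716380-135716479, - strand): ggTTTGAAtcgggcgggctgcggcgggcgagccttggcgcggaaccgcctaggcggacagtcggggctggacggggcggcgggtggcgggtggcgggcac
Cep55 (chr19:38054941-38055040, + strand): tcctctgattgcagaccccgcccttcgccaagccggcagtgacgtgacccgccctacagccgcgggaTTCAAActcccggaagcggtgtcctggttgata
Kif15 (chr9:122950981-122951080, + strand): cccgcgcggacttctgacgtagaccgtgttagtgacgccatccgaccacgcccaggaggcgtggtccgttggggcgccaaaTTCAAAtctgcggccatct

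Counted from the start, with -1 the last base before it, the CHR letters began at -17 in Kif22, -18 in Ncapg2, -19 in Kif11 and Kif15, -23 in Top2a, -30 in Prc1 and Ncapg, and -33 in Cep55. In Mki67 they began at -98. Further copies lay at -116 in Mki67, -179 in Top2a, -215 in Kif22 and -234 in Kif15. Counted from the other start of the gene, the letters began at -5 in Prc1 and at position 25 of the transcript in Cep55. In 6 of the 23 genes with CHR letters (Ckap2, Kif14, Kif2c, Mki67, Ncapd2 and Ncapd3) they began more than 50 bases from the start, as far as -249 in Ncapd3. For Ncapd3 this was counted from its downstream start, and the window of its other start held no CHR letters. In other genes the letters followed the start. In Kif11, Kif22 and Prc1 a single CCAAT box stood upstream of the CHR within this stretch, in Top2a there were 3, and in Ncapg, Ncapg2, Mki67, Cep55 and Kif15 there was none. The promoters of Racgap1 and Kif18a are given for contrast, the first from a gene that was not called and the second from a gene that rose without CHR letters in its window.
Racgap1 (chr15:99651657-99651756, - strand): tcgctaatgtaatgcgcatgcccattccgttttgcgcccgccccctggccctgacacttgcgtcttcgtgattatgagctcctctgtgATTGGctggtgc
Kif18a (chr2:109280638-109280737, + strand): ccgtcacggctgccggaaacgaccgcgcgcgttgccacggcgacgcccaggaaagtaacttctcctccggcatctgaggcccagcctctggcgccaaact

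In Racgap1 the CHR letters lay after the start, at position 6 of the transcript, with a CCAAT box at -12. Presence of the letters did not match the calls gene by gene. Kif14, Kif15, Racgap1 and Ncapd3 held them and were not called higher, whereas Kif18a, Melk, Ncaph and Nusap1 lacked them and rose in heterozygous tumors. Kif14 and Kif15 were each read by 1 probe set below the median of all values in every sample, so a rise could be missed. Ncapd3 was higher in heterozygous tumors but under 2-fold (0.57 ± 0.10, SE, limma adjusted p = 0.0103), and held the letters only at its downstream start. By role, CHR letters were found in 3 of 5 spindle assembly genes, 8 of 9 mitotic kinesins, 5 of 6 cytokinesis genes and 7 of 8 condensin and chromosome structure genes. A match of letters is a description of the sequence and not evidence of a bound factor.

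In the spindle assembly group, 6 of 7 genes rose in heterozygous tumors and none was called in the homozygous tumor, with median log2 changes of 1.39 in the homozygous tumor and 2.01 in heterozygous tumors. Ckap2, which encodes a protein that stabilizes spindle microtubules, had a log2 signal of 7.69 in the homozygous sample, 8.75, 8.70, 7.62 and 8.69 in heterozygous samples, and 6.29 and 5.91 in normal pituitary. Heterozygous sample 5-6 stood about 1 unit below the other heterozygous samples, yet all tumor values exceeded both normal values. The log2 change in heterozygous tumors was 2.34 ± 0.32 (SE, n = 4 against 2; limma adjusted p = 0.00384), which is 5.06-fold. Melk, a kinase abundant in dividing cells, had 5.71 in the homozygous sample, 6.81, 6.50, 5.94 and 6.50 in heterozygous samples, and 4.31 and 4.33 in normal pituitary. Its change was 2.11 ± 0.22 (SE; limma adjusted p = 0.00127). Tpx2, which activates Aurora A and nucleates spindle microtubules, had 6.87 in the homozygous sample, 7.95, 7.47, 7.03 and 7.61 in heterozygous samples, and 5.43 and 5.53 in normal pituitary.

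The change of Tpx2 was 2.04 ± 0.23 (SE; limma adjusted p = 0.00165) in heterozygous tumors. Its partner Aurka, the Aurora A kinase of centrosomes and spindle poles, had 6.99 in the homozygous sample, 7.74, 7.32, 6.76 and 7.27 in heterozygous samples, and 5.28 and 5.93 in normal pituitary. Aurka was 1.67 ± 0.28 (SE; limma adjusted p = 0.00798) higher in heterozygous tumors, but lost its call when normal sample 1 was left out (1.35, adjusted p = 0.0748). Nusap1, a microtubule bundler of the spindle, and Hmmr, a spindle-pole protein also known as a hyaluronan receptor, rose by 2.01 and 1.85. Dlgap5, which stabilizes microtubules at kinetochores, was the group's only gene not called. It had 6.0 in the homozygous sample, 6.48, 6.23, 5.74 and 6.12 in heterozygous samples, and 5.45 and 5.56 in normal pituitary. Every tumor sample of Dlgap5 lay above both normal samples, as for 16.7% of all genes. The log2 difference in heterozygous tumors was 0.63 ± 0.19 (SE, limma adjusted p = 0.0664).

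Of the 10 mitotic kinesins, 2 rose in the homozygous tumor and 8 in heterozygous tumors, with median log2 changes of 0.93 and 1.34. Kif20a, which carries mitotic kinases to the central spindle, had 6.58 in the homozygous sample, 7.25, 7.22, 6.93 and 7.32 in heterozygous samples, and 4.89 and 5.49 in normal pituitary. Its log2 change of 1.99 ± 0.19 (SE, 3.97-fold; limma adjusted p = 0.000862) was the largest among the kinesins in heterozygous tumors, and in the homozygous tumor it was 1.39 ± 0.26 (adjusted p = 0.051). Kif2c, a kinesin that depolymerizes microtubules at kinetochores, had 6.25 in the homozygous sample, 6.86, 6.79, 6.51 and 6.74 in heterozygous samples, and 5.04 and 4.75 in normal pituitary. It was called in both genotypes, with a change of 1.35 ± 0.19 in the homozygous tumor (SE; limma adjusted p = 0.0245) and 1.83 ± 0.14 in heterozygous tumors (adjusted p = 0.000435). Kif20b, a kinesin needed late in cytokinesis, had 6.85 in the homozygous sample, 7.13, 7.20, 7.49 and 7.37 in heterozygous samples, and 5.55 and 5.93 in normal pituitary. Here the highest tumor value was that of sample 5-6, and the change in heterozygous tumors was 1.56 ± 0.15 (SE; limma adjusted p = 0.000996).

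Among the other kinesins of the group, Kif22, which binds chromosome arms and pushes them from the poles, was called in both genotypes, at 1.17 in the homozygous tumor and 1.44 in heterozygous tumors. Kif11, the plus-end motor that slides antiparallel microtubules apart, and Kif4, a chromosome-bound motor that works with condensin and Prc1, each rose by 1.34 in heterozygous tumors. Kif18a, which dampens chromosome movement at the metaphase plate, rose by 1.25, and Kif23, the motor subunit of centralspindlin, by 1.18. The calls of Kif4 and Kif23 were lost without normal sample 2 (adjusted p = 0.0652 and 0.0668), and that of Kif23 also without normal sample 1 (0.061). Kif14 and Kif15 were each read by 1 dim probe set and showed no call. Kif14, which recruits citron kinase to the midbody, had 2.90 in the homozygous sample, 3.16, 2.79, 3.02 and 2.96 in heterozygous samples, and 2.97 in both normal samples. Kif15, which can share the work of Kif11, had 4.76 in the homozygous sample, 4.79, 4.57, 4.88 and 4.43 in heterozygous samples, and 4.85 and 4.83 in normal pituitary. Both lay below the median of all values in every sample, and their log2 differences in heterozygous tumors were 0.01 ± 0.12 and -0.17 ± 0.14 (SE; limma adjusted p = 0.961 and 0.477).

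Of the 7 cytokinesis genes, 3 rose in the homozygous tumor and 5 in heterozygous tumors, with median log2 changes of 1.54 and 1.94. Anln, the anillin scaffold of the contractile ring, had 7.68 in the homozygous sample, 8.54, 8.30, 7.66 and 8.38 in heterozygous samples, and 5.97 and 6.27 in normal pituitary. Its change in heterozygous tumors was 2.10 ± 0.24 (SE, 4.29-fold; limma adjusted p = 0.00179). Ect2, the exchange factor that activates RhoA at the cell equator, had 7.04 in the homozygous sample, 7.72, 7.57, 7.19 and 7.44 in heterozygous samples, and 5.41 in both normal samples. Ect2 was called in both genotypes, with 1.63 ± 0.21 in the homozygous tumor (SE; limma adjusted p = 0.0174) and 2.07 ± 0.15 in heterozygous tumors (adjusted p = 0.000393). Shcbp1, a midbody protein that binds centralspindlin, had 6.91 in the homozygous sample, 7.26, 7.37, 7.00 and 7.33 in heterozygous samples, and 5.21 and 5.25 in normal pituitary. Its changes were 1.68 ± 0.18 in the homozygous tumor (SE; limma adjusted p = 0.0101) and 2.01 ± 0.13 in heterozygous tumors (adjusted p = 0.000255).

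Cep55, which recruits the abscission machinery to the midbody, rose by 1.54 in the homozygous tumor and 1.82 in heterozygous tumors, and Prc1 rose by 1.94 in heterozygous tumors. The 2 cytokinesis genes not called were bright on every array. Racgap1, the GTPase-activating subunit that pairs with Kif23 in centralspindlin, had 8.53 in the homozygous sample, 9.01, 8.78, 8.25 and 8.71 in heterozygous samples, and 8.67 and 8.85 in normal pituitary. The tumor and normal values overlapped, with a log2 difference of -0.08 ± 0.20 in heterozygous tumors (SE; limma adjusted p = 0.85), and the other bright probe set of Racgap1 gave -0.29 ± 0.22 (adjusted p = 0.452). Citron kinase, encoded by Cit and needed at the midbody, had 8.80 in the homozygous sample, 8.72, 8.83, 8.65 and 8.80 in heterozygous samples, and 8.52 and 8.49 in normal pituitary, a log2 difference of 0.25 ± 0.10 in heterozygous tumors (SE; limma adjusted p = 0.141).

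The probe sets of Cit disagreed. One of the less bright ones had 6.28 in the homozygous sample, 7.29, 7.21, 7.16 and 6.80 in heterozygous samples, and 6.39 and 6.22 in normal pituitary, and was 0.81 ± 0.15 higher in heterozygous tumors (SE; limma adjusted p = 0.0125, fold under 2). Another had 6.28 in the homozygous sample, 7.39, 7.46, 7.06 and 6.83 in heterozygous samples, and 6.39 and 6.64 in normal pituitary (0.67 ± 0.19; adjusted p = 0.0562). On both of these the homozygous sample lay within 0.4 of the normal samples and below every heterozygous sample, whereas on the brightest probe set it lay among the heterozygous samples.

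In the condensin and chromosome structure group, 1 of 9 genes rose in the homozygous tumor and 8 rose in heterozygous tumors, with median log2 changes of 1.15 and 1.71. Mki67, which encodes the Ki-67 protein that coats mitotic chromosomes and is the common histological marker of proliferation, had 9.20 in the homozygous sample, 10.19, 10.16, 9.13 and 9.99 in heterozygous samples, and 7.09 and 7.35 in normal pituitary. All tumor samples were far above both normal samples, and the log2 change in heterozygous tumors, 2.65 ± 0.29 (SE, 6.26-fold; limma adjusted p = 0.00163), was the largest of the 33. In the homozygous tumor the Mki67 difference was 1.98 ± 0.41 (SE, 3.96-fold; limma adjusted p = 0.0669). Ncapg, a subunit of condensin I, had 5.46 in the homozygous sample, 6.38, 6.42, 5.69 and 6.33 in heterozygous samples, and 3.64 and 3.76 in normal pituitary. It was the condensin gene called in both genotypes, with 1.77 ± 0.30 in the homozygous tumor (SE; limma adjusted p = 0.0355) and 2.51 ± 0.21 in heterozygous tumors (adjusted p = 0.000571). Top2a, the topoisomerase II of dividing cells, had 8.70 in the homozygous sample, 9.80, 9.41, 8.47 and 9.47 in heterozygous samples, and 6.87 and 6.80 in normal pituitary. The Top2a change was 2.45 ± 0.33 (SE, 5.47-fold; limma adjusted p = 0.00322) in heterozygous tumors.

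The remaining condensin I subunits Ncapd2 and Ncaph rose by 1.79 and 1.71 in heterozygous tumors, and Ncapg2, of condensin II, by 1.71. Smc4 and Smc2, the ATPases shared by both condensins, rose by 1.33 and 1.05. Smc2 was the change nearest the 2-fold limit and kept its call only without sample 5-6 when a heterozygous or normal sample was left out. It lost the call without normal sample 1 or 2 (limma adjusted p = 0.122 and 0.114), without heterozygous sample 1-2 or 3-4 (0.0509 and 0.0597), without 7-8, where it was under 2-fold, and with Xist as a covariate (0.0564). Ncaph lost its call without normal sample 1 (adjusted p = 0.0604), and Ncapd2 without normal sample 2 (0.0547). Ncapd3, a condensin II subunit, had 8.44 in the homozygous sample, 8.71, 8.85, 8.63 and 8.80 in heterozygous samples, and 8.19 and 8.16 in normal pituitary. Every tumor sample of Ncapd3 lay above both normal samples, as for 16.7% of all genes. The difference in heterozygous tumors passed the test, but at 0.57 ± 0.10 (SE, 1.49-fold, limma adjusted p = 0.0103) it was under 2-fold.

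**Figure D2:**
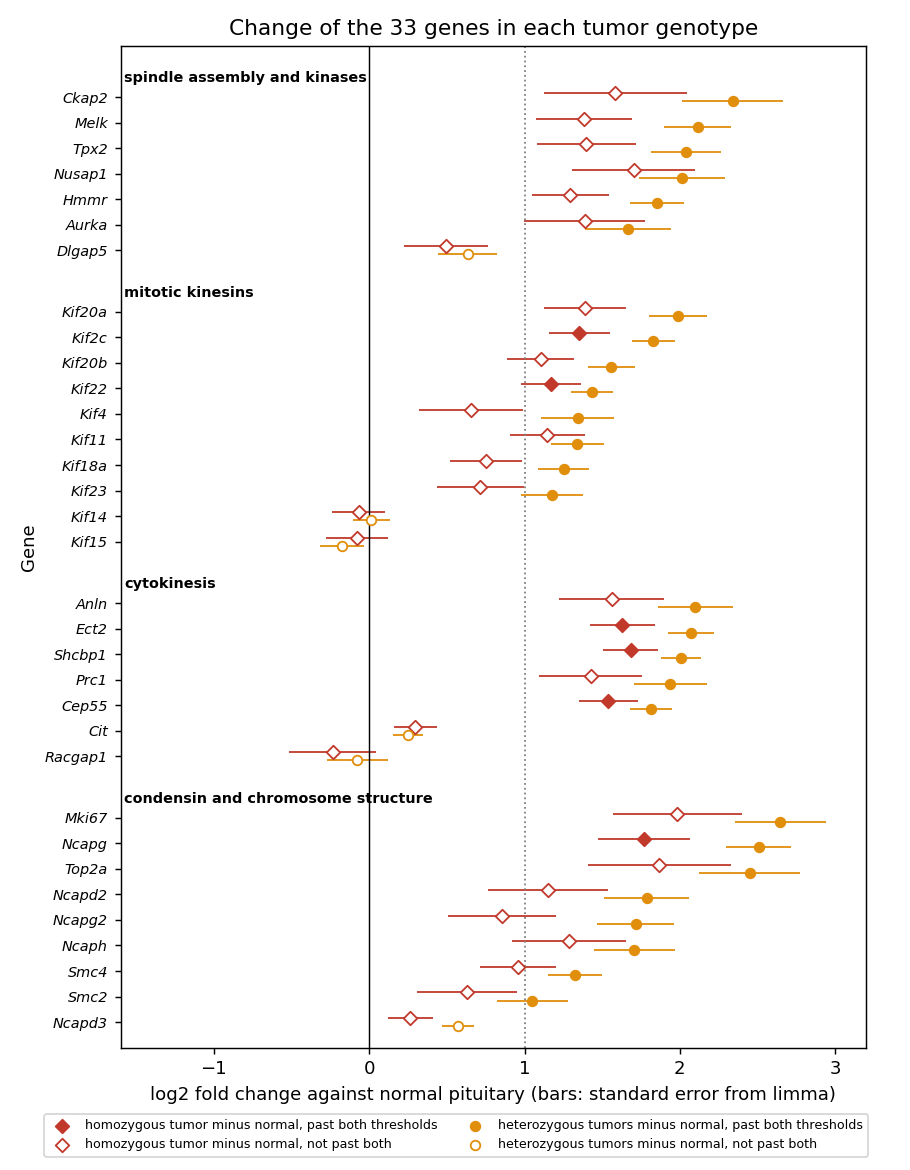
Log2 fold change of the 33 genes against normal pituitary in the homozygous tumor (diamonds) and heterozygous tumors (circles), with limma standard errors as bars; filled symbols passed both thresholds and the dotted line marks 2-fold. The heterozygous change is the larger in 31 of 33 genes, and 6 homozygous and 27 heterozygous symbols are filled.

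The 33 genes were covered by 77 probe sets, of which 44 did not stand for their gene. Of these 44, 16 were also called higher in heterozygous tumors, among them 3 for Hmmr, and 2 each for Kif11, Kif22 and Smc4. None of the 44 was called lower. All 16 were among the 22 whose heterozygous mean reached the median of all array values. The 6 of these 22 that were not called belonged to Cit, Kif2c, Ncapd3 and Racgap1. Because that division uses the heterozygous signal itself, it favors higher calls and only describes where the called probe sets lie. Reading each gene from the mean of all its probe sets left 21 of the 33 called in heterozygous tumors, without Aurka, Kif2c, Kif18a, Kif20b, Kif23 and Smc2.

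**Figure D3:**
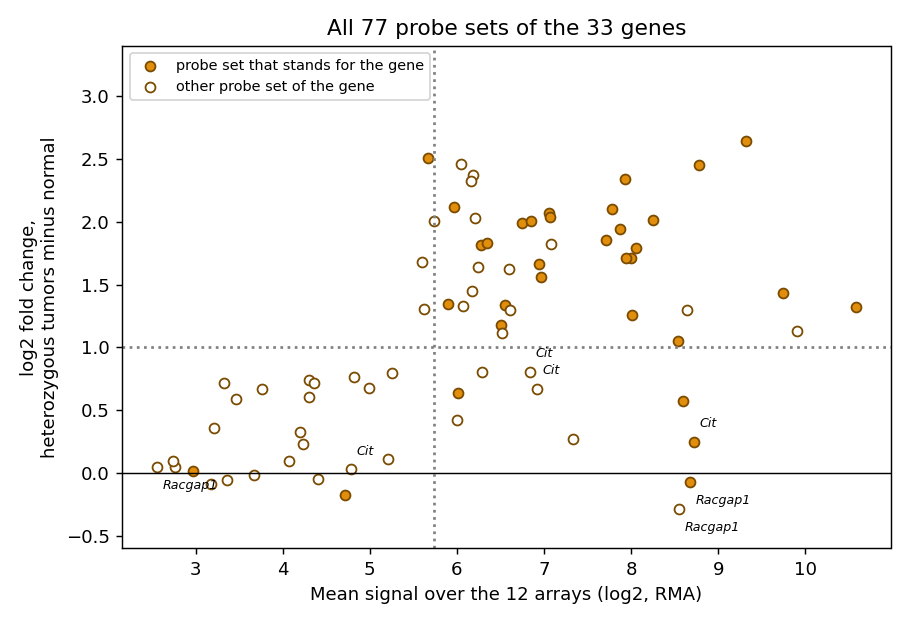
Log2 fold change in heterozygous tumors against normal pituitary for all 77 probe sets of the 33 genes, by mean log2 signal over the 12 arrays; filled points stand for their gene, the vertical dotted line is the median of all values and the horizontal one 2-fold. Racgap1 has 2 bright probe sets near 0, and the probe sets of Cit spread between 0.03 and 0.81.

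The homozygous tumor was set against normal pituitary by its single sample. The 6 genes called there were Kif2c, Kif22, Ect2, Cep55, Shcbp1 and Ncapg, and each was also called in heterozygous tumors. A further 15 genes exceeded 2-fold in the homozygous tumor without passing the test (21 of the 33 exceeded it in all, against 2.67% of all genes), among them Mki67, Top2a (1.87 ± 0.46; limma adjusted p = 0.105) and Nusap1 (1.70 ± 0.39; adjusted p = 0.0897). The homozygous count depended on the normal samples and on how the arrays were counted: no gene was called without normal sample 1 or without normal sample 2, 3 without heterozygous sample 3-4, 15 without heterozygous sample 5-6, and 21 with 12 separate arrays. With Xist as a covariate 1 gene was called. Since the normal samples both had low Xist and the homozygous tumor did not, the sex that Xist marks and the genotype cannot be told apart in that comparison. Which genes were called there also depended on the probe set read. The other probe sets of Kif2c (0.09, 0.32 and 0.91), Kif22 (1.78 and 0.90), Cep55 (0.62) and Ncapg (1.14) were not called in the homozygous tumor. Conversely, other probe sets of Hmmr (1.94 and 2.09) and Prc1 (1.53) were called in it.

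Between the genotypes, none of the 33 genes was called in the homozygous tumor against heterozygous tumors, where 0.286% of all genes were called in either direction and 0.0495% as lower. Of the 33, 7 had an unadjusted limma p below 0.05, as did 9.94% of all genes. The difference was negative in 31 genes, with a median of -0.45 and a range of -0.86 (Ncapg2) to 0.10 (Kif15), against a median of -0.02 for all genes. In 18 of the 33 genes the homozygous sample lay below all 4 heterozygous samples, as it did for 24.7% of all genes. The largest difference, Ncapg2 at -0.86 ± 0.32 (SE; limma adjusted p = 0.533), did not pass the test, and with 1 homozygous sample such a result does not show that the genotypes were alike.

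Among the heterozygous tumors, most of the 33 genes were lowest in the same sample. Sample 5-6 was the lowest of the 4 in 29 of the 33 genes, as it was in 24.2% of all genes. This was not particular to the 33: it held for all 19 other mitosis genes described below, as for Cdk1 (8.73 against 9.16 to 9.45). Sample 5-6 was also lowest for the 15 cohesin, Smc5/6 and other topoisomerase genes, except Nipbl, Top1, Top2b and Top3a. Its log2 signal minus the mean of the other heterozygous samples had a median of -0.53 over the 33 genes and 0.00 over all genes, and was lowest for Ckap2 (-1.10), Top2a (-1.09) and Mki67 (-0.98). Kif18a, Kif20b and Kif15 ran the other way, with sample 5-6 the highest of the 4 (0.24, 0.26 and 0.28 above the mean of the others), and Kif14 differed by 0.05. Against the homozygous sample, sample 5-6 was higher in 20 of the 33 genes (53.0% of all genes), with a median difference of 0.07 (0.02 for all genes) and a range of -0.35 for Nusap1 to 0.68 for Kif18a. Summed macrophage signal in sample 5-6, 7165, was between those of the other heterozygous samples, and its Xist level was low as in sample 1-2, which had the highest value in 19 of the 33 genes. Without sample 5-6 the count of genes called in heterozygous tumors was again 27.

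**Figure D4:**
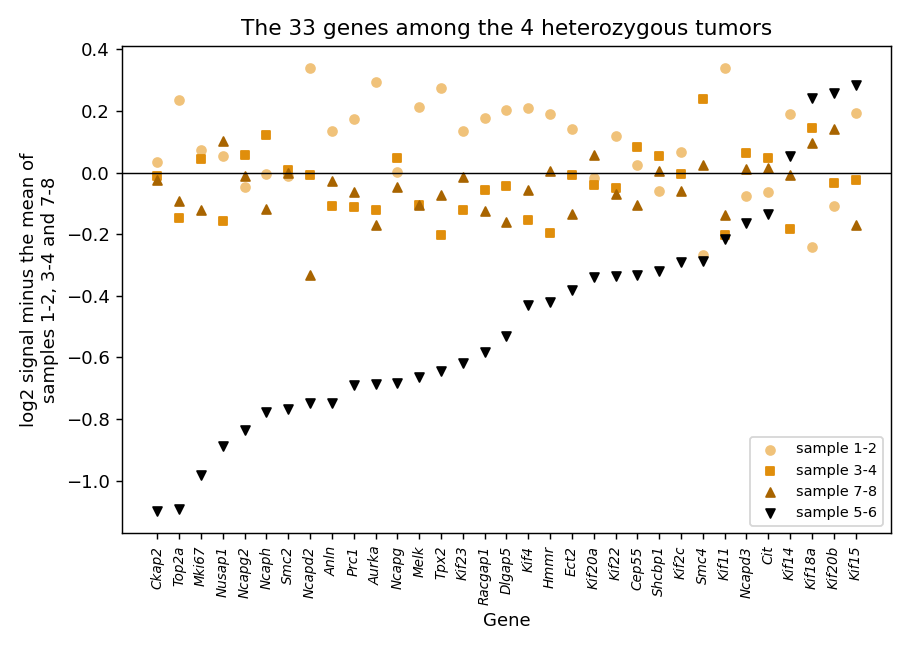
Log2 signal of the 33 genes in each of the 4 heterozygous samples minus the mean of samples 1-2, 3-4 and 7-8, ordered by the value of sample 5-6 (black triangles). Sample 5-6 is the lowest of the 4 in 29 genes, by up to 1.10, and the highest in Kif15, Kif18a and Kif20b.

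The heterozygous count of 27 was not exceeded under any of the 20 alternatives tried. Between 21 and 27 genes were called, the fewest with the mean of all probe sets of a gene. Leaving out either normal sample also removed some calls, as given above by gene. Among only the samples with low Xist, 2 heterozygous and 2 normal, 26 genes were called higher (3.98% of all genes), so the heterozygous result was also seen among samples with a like Xist level.

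Related genes were read for comparison from 4 lists. Of 19 other mitosis genes, 6 rose in the homozygous tumor and 10 in heterozygous tumors, with a median log2 change of 0.74 and 1.14. Cdca8 and Incenp, which with Birc5 and Aurora B form the chromosomal passenger complex, belong to this list, as do the mitotic kinase Cdk1 and the checkpoint kinases Bub1 and Ttk. Cdca8 had 7.79 in the homozygous sample, 8.46, 8.32, 7.86 and 8.13 in heterozygous samples, and 5.57 and 5.48 in normal pituitary, a change of 2.67 ± 0.17 in heterozygous tumors (SE; limma adjusted p = 0.000255). Cdk1 rose by 2.56 ± 0.21 (adjusted p = 0.000554), and Aurkb, the paralog of Aurka, by 1.43 ± 0.22 (adjusted p = 0.00564). Foxm1 and Mybl2, transcription factors of G2 and mitosis genes, showed differences of 0.01 ± 0.13 and 0.36 ± 0.16 in heterozygous tumors (SE, limma adjusted p = 0.977 and 0.174). The Mybl2 probe set lay below the median of all values (5.74) in every sample, so a change could be missed.

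None of 24 other kinesins, most of them transport motors, was called in either direction in either genotype, and their median log2 change was -0.23 in the homozygous tumor and -0.17 in heterozygous tumors. Kif2a, the paralog of Kif2c, had 9.36 in the homozygous sample, 9.32, 9.53, 9.46 and 9.39 in heterozygous samples, and 9.60 and 9.59 in normal pituitary (-0.17 ± 0.10; limma adjusted p = 0.312). None of 15 genes of cohesin, the Smc5/6 complex and other topoisomerases was called either, with a median of 0.11 in the homozygous tumor and 0.13 in heterozygous tumors. In that list Top2b, the topoisomerase II that non-dividing cells also express, differed by -0.01 ± 0.10 (adjusted p = 0.969) and the cohesin ATPase Smc1a by 0.41 ± 0.17 (adjusted p = 0.155). Likewise none of 17 actomyosin ring, septin and abscission genes was called, with a median of -0.06 in the homozygous tumor and -0.01 in heterozygous tumors. CHR letters were found in 8 of 17 other mitosis genes with a promoter window (47.1%), 3 of 20 other kinesins (15%), 2 of 10 cohesin and related genes (20%) and 2 of 14 actomyosin ring, septin and abscission genes (14.3%), against the 18.5% of all protein-coding genes.

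**Figure D5:**
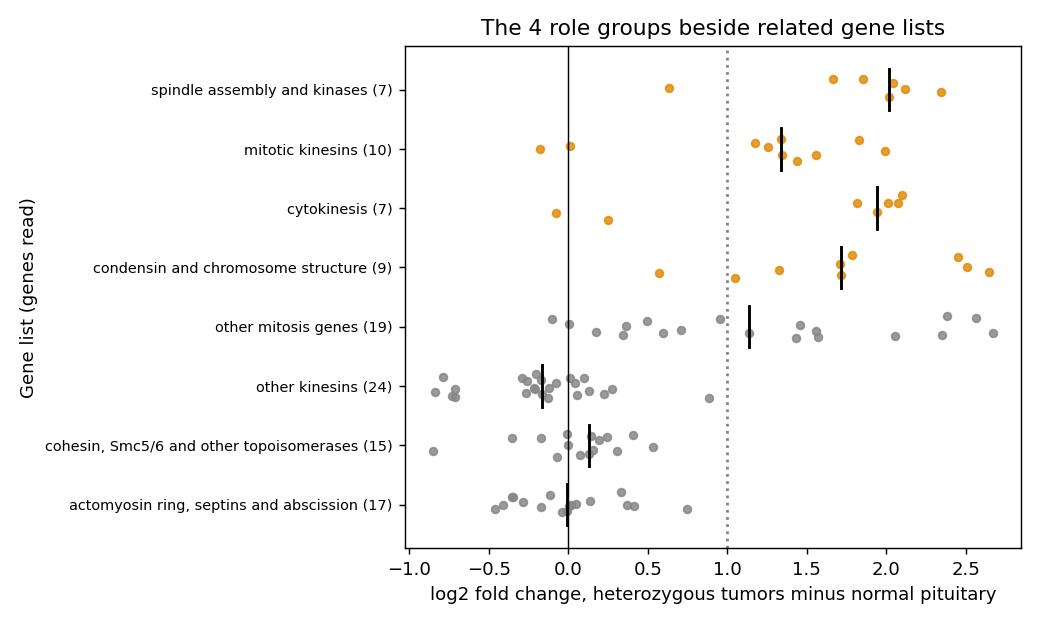
Log2 fold change in heterozygous tumors against normal pituitary for the 4 role groups (orange) and 4 lists of related genes (grey); each point is a gene, black bars are medians and the dotted line marks 2-fold. The role groups have medians of 1.34 to 2.01, other mitosis genes 1.14, and the other 3 lists between -0.17 and 0.13 with no gene called.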

How the data were processed

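Pituitary RNA (Trizol, RNA integrity number above 7 per the labels) was hybridized to 12 arrays. The deposited values are log2 signals that the authors made by RMA, in Affymetrix Expression Console per the submitters' processing notes and in GeneSpring per the methods, which dropped probes with absent calls; RMA puts all arrays on 1 distribution, so changes are relative to the other transcripts. The number of arrays limits the precision. Of 45101 probe sets, 64 controls were left out, and 45037 entered limma 3.58.1 (R 4.3.3) with 3 groups and no filter on low values, tested on simulated data. Near-duplicate arrays were averaged, which left 4 residual degrees of freedom, and p-values were adjusted by Benjamini-Hochberg over all probe sets. Genes were named from the platform annotation: 34945 probe sets named 1 gene, 932 several and 9160 none. The fold limit of 2 and the adjusted p of 0.05 follow the methods, which used a one-way test; that test was an alternative, as were array counting, filters, normalization, gene reading, Xist and leaving out samples.

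The 33 genes, the other lists and the markers were chosen with earlier results of these data known. All 33 are described by count and range within their role; full statistics were set out for the 3 largest and the smallest heterozygous changes of each role, genes not called, Mki67, Top2a and Aurka, and from the other lists for the 2 largest changes and 1 paralog. Kif22, Ncapg2 and other genes beyond this rule, with Foxm1 and Mybl2, were named after their values were seen. Ccnb1, Kif19a and Rock2 were not analysed here. Promoter windows were searched on both strands with Python 3.11.15.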

Additional observations from a re-analysis of the deposited data

Results flagged for a closer look

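In 5 of the 33 genes, 1 heterozygous sample stood far from the other heterozygous samples. The gap to the nearest of them, relative to the whole range, was above Dixon's critical value, which chance exceeds in about 1 in 20 groups of 4. The share of all genes beyond that value was not counted, and genes that vary together are not independent trials. Sample 5-6 was low in 4 of them: Ckap2 at a log2 signal of 7.62 (others 8.69 to 8.75), Smc2 at 8.21 (8.96 to 8.98), Ncapg at 5.69 (6.33 to 6.42) and Ncapg2 at 7.80 (8.59 to 8.70). Sample 1-2 was high for Kif11, at 7.21 (others 6.65 to 6.73).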

How the results depend on the processing

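The number of the 33 genes called in the homozygous tumor was 6, but 21 with 12 separate arrays, with the pair as a random block (correlation 0.640) or with the one-way test, 19 after centring on 7 housekeeping genes, and 1 with Xist as a covariate; leaving out 1 sample gave 0 to 15. With arrays numbered 1 and 2 and the number as a replicate block, 21 were called there and 7 between the genotypes, where no other setting called any. The numbers did not pair the samples (correlations of deviations -0.010 to 0.033), and that fit used fewer arrays. The causes of the other shifts were not tested. Housekeeping centring raised the median of all genes by 0.165 in heterozygous tumors, and the calls over all genes became 957 higher and 544 lower, against 696 and 625, and in the homozygous tumor 349 and 233, against 174 and 190. Over single genes and settings, 498 homozygous values kept direction and call, 22 lost the call, 97 gained it and 5 turned, and of the heterozygous values 597 kept both, 19 lost the call and 6 turned. Directions turned only for genes not called in either genotype. Racgap1 in heterozygous tumors was 0.0899 after housekeeping centring, 0.249 with the replicate block, and -0.18 to 0.0700 when 1 sample was left out. Kif14 ranged from -0.0453 to 0.0786 in heterozygous tumors and from -0.16 to 0.0206 in the homozygous tumor when 1 sample was left out, and in the homozygous tumor was 0.0102 after housekeeping centring and 0.152 with Xist. Kif15 was 0.259 with Xist and Cit -0.0304 with the mean of all probe sets, both in the homozygous tumor. The setting restricted to samples with low Xist was chosen after the data were seen. With 2 normal samples and 1 homozygous sample, changes under 2-fold and homozygous changes were measured with little precision.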
